A study of Drosophila melanogaster with 2 samples.

Results

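The genes described here encode the subunits of the proteasome of Drosophila melanogaster. They were taken from the expression data by the start of the gene symbol, as every gene whose symbol begins with Prosalpha, Prosbeta, ProsMA, Pros and a digit, Rpn and a digit, or Rpt and a digit. This rule found 41 of the 13623 genes. The rule uses no expression value, but the members were chosen with earlier results of these data known. Of the 41 genes, 28 are constitutive subunits. The other 13 are second copies, named with a T or an R after the name of the subunit, in some with a digit after it, or, for Pros28.1A and Pros28.1B, with a letter, and several of these second copies are known from the testis.

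The proteasome breaks down proteins that carry a chain of ubiquitin. Its 20S core is a barrel of alpha rings, which gate the entrance, and beta rings, of which beta1, beta2 and beta5 hold the active sites. The 19S regulatory particle caps the barrel: its Rpt subunits are ATPases that unfold the substrate, and its Rpn subunits bind ubiquitin chains, remove them and hold the particle together. The core and the cap together form the 26S proteasome, which is found in nearly all cells and in the nucleus as well as the cytoplasm. In the testis of the fly some subunits are replaced by the products of second gene copies.

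Nuclear RNA was sequenced from 1 library of glial nuclei and 1 library of GNP nuclei. GNP are neural progenitor cells that express gcm, and the sample labels call them early glial cells. The glial nuclei came from embryos 12 to 14 h after egg laying that carried repo-Gal4 and UAS-3xFLAG-blrp-mCherry-RanGap over a Tm3B balancer, and the GNP nuclei from embryos of 5 to 7 h that carried gcm-Gal4, UAS-mCDGFP and the same UAS-3xFLAG-blrp-mCherry-RanGap. The labels state these ages, but the development times after egg collection differ between the labels' protocol and the published methods. Both purifications pulled nuclei with a FLAG-tagged RanGap protein of the nuclear envelope from a homogenate of whole cross-linked embryos. Each library is thus a pool of many embryos, selected for nuclei of cells in which the driver was active. How much RNA of other cells each library holds was not tested. Cell type, embryo age and driver line changed together and cannot be told apart. With 1 library of each cell type no difference has a replicate check, and no p-value was computed.

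Expression was compared as FPKM, the reads of a gene scaled to its transcript length and to the mapped reads of the library, and a change is log2 of (FPKM + 1) in glia over (FPKM + 1) in GNP. A gene at least 2-fold higher or lower on this scale is described as such without a test. The low values correspond to about 52.5 M mapped reads in glia and 64.2 M mapped reads in GNP. Among 8 glial markers 4 were at least 2-fold higher in glia, repo being at 32.0 FPKM in glia and 3.84 FPKM in GNP, while Eaat1 was low in both at 2.84 FPKM in glia and 2.00 FPKM in GNP. Of 6 progenitor markers 4 were at least 2-fold lower in glia, and gcm was at 21.5 FPKM in glia and 40.2 FPKM in GNP. The progenitor marker scrt was higher in glia, at 62.0 FPKM in glia and 43.4 FPKM in GNP. Markers of other cells also moved: the 4 muscle markers summed to 4930 FPKM in glia and 702 FPKM in GNP, with none at 0. Of 4 neuronal markers 3 were at least 2-fold higher in glia, while elav was lower, at 44.2 FPKM in glia and 76.9 FPKM in GNP. The 4 plasmatocyte markers, a blood lineage in which gcm is also active, did not share a direction. Pxn was at 55.4 FPKM in glia and 10.2 FPKM in GNP, while srp and crq were lower in glia by less than 2-fold on this scale. Hml was low in both, at 0.120 FPKM in glia and 0.945 FPKM in GNP. The added 1 keeps its change under 2-fold. The part of these cells in the proteasome values was not tested. In pooled nuclei, fewer cells of a type and less RNA per cell cannot be told apart.

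The genes of the 20S core were lower in glia, and most genes of the 19S particle were within 2-fold. Of the 41 genes, 16 were at least 2-fold lower in glia and 0 were at least 2-fold higher. Of all genes, 16.4% were at least 2-fold lower and 21.2% at least 2-fold higher. These shares were 22.5% lower and 28.7% higher among genes averaging at least 1 FPKM. Among the 2233 genes averaging at least 50 FPKM, a level reached by each constitutive subunit but Prosalpha1 and Rpn2, they were 25.2% lower and 21.3% higher. The lower genes were mainly those of the 20S core: 12 of its 13 members were at least 2-fold lower, against 2 of the 15 constitutive members of the 19S particle. The second copies Rpt3R and Rpt6R were the other lower members. The median log2 change was -1.49 for the core and -0.23 for the 19S particle, a difference of -1.26, while the median over all genes was 0.04.

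**Figure D1:**
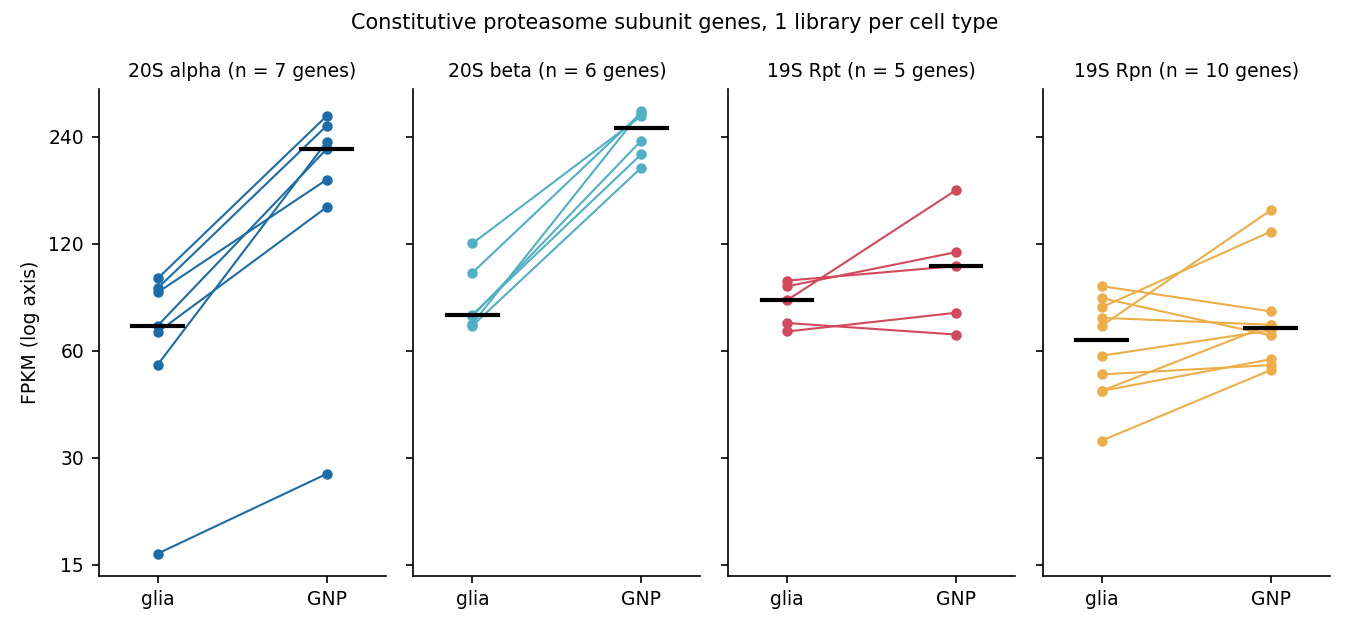
FPKM on a log axis of the 28 constitutive subunit genes in the glia library (left) and the GNP library (right) of each panel, with 1 line per gene and a black bar at the median of the group. The alpha and beta genes lie between 54.8 and 120.2 FPKM in glia and between 152 and 283 FPKM in GNP, apart from Prosalpha1, while the median of the Rpt and Rpn genes together is 71.8 FPKM in glia and 71.0 FPKM in GNP.

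The alpha subunits of the core were lower in glia in all 7 cases, 6 of them at least 2-fold. Pros28.1, which encodes alpha4, had the lowest change of the constitutive members, with 54.8 FPKM in glia and 232 FPKM in GNP, a log2 change of -2.06. Prosalpha5 was at 70.6 FPKM in glia and 221 FPKM in GNP. Pros35, the gene of alpha6, was at 95.8 FPKM in glia and 274 FPKM in GNP. These 3 genes were between 2.86-fold and 4.23-fold lower in glia by the ratio of the FPKM values. Prosalpha7 had 90.0 FPKM in glia and 258 FPKM in GNP. Pros29, which encodes alpha3, whose tail closes the gate of the barrel in yeast, had 67.7 FPKM in glia and 152 FPKM in GNP. Pros25, the gene of alpha2, had 87.6 FPKM in glia and 182 FPKM in GNP, a log2 change of -1.04, just past 2-fold.

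Prosalpha1 stood apart from the other core genes by its low level. It was at 16.1 FPKM in glia and 27.0 FPKM in GNP, a log2 change of -0.71, and was the only core member under 2-fold. The annotation holds another copy of this gene, CG30382, now named Prosalpha1R, which the symbol rule does not catch. CG30382 was at 39.2 FPKM in glia and 111 FPKM in GNP, a log2 change of -1.48. The methods state that uniquely mapped reads were used, so reads that match both copies would be left out of either value. How much sequence the copies share, and how many reads this concerns, was not tested, and the level of either copy is uncertain. The sum of both copies was 55.3 FPKM in glia and 138 FPKM in GNP, a log2 change of -1.31. Without Prosalpha1 the median log2 change of the constitutive subunits was -1.02 in place of -0.86.

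The 6 beta subunits were all at least 2-fold lower in glia, with log2 changes between -1.97 and -1.18. Pros26, which encodes beta6, was at 71.5 FPKM in glia and 283 FPKM in GNP, a log2 change of -1.97. Its level in GNP was the highest of all members. The genes of the 3 catalytic subunits were Prosbeta1 at 75.7 FPKM in glia and 214 FPKM in GNP, Prosbeta2 at 120.2 FPKM in glia and 274 FPKM in GNP, and Prosbeta5 at 75.1 FPKM in glia and 234 FPKM in GNP. Their proteins cut after acidic, basic and hydrophobic residues, and all 3 genes were more than 2-fold lower in glia, with log2 changes of -1.49, -1.18 and -1.63. Prosbeta3 was at 70.5 FPKM in glia and 196 FPKM in GNP. Prosbeta7 was at 99.5 FPKM in glia and 280.1 FPKM in GNP. The beta4 subunit is listed as CG17331, outside the rule, and it was lower in glia as well, at 84.9 FPKM in glia and 200.02 FPKM in GNP, a log2 change of -1.23.

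**Figure D2:**
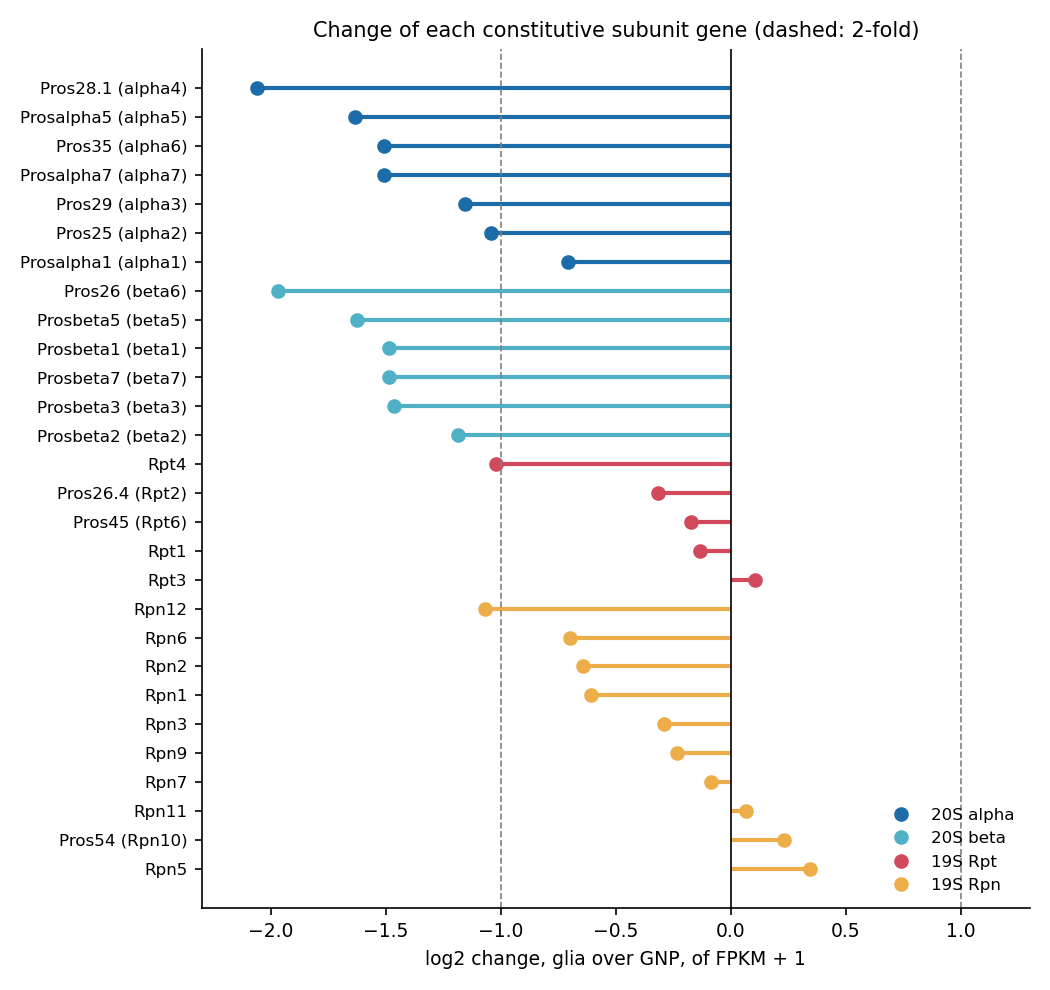
Log2 change of FPKM + 1, glia over GNP, of each constitutive subunit gene, sorted within its group, with dashed lines at 2-fold. All 13 core genes lie below 0 and 12 of them past 2-fold, while Rpt4 and Rpn12 are the only 19S genes past 2-fold.

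The ATPase genes of the 19S particle had a median log2 change of -0.17 as deposited and 0.0084 with glia scaled to the upper quartile of GNP, and 1 of the 5 members was at least 2-fold lower in glia. That gene was Rpt4, at 83.2 FPKM in glia and 169.7 FPKM in GNP, with a log2 change of -1.02. Rpt1 was at 94.4 FPKM in glia and 104 FPKM in GNP. Pros26.4, the gene of Rpt2, was at 91.0 FPKM in glia and 114 FPKM in GNP. Their ratios of GNP over glia were 1.10 and 1.25. Rpt3 was at 71.8 FPKM in glia and 66.6 FPKM in GNP, the only one of the 5 ATPase members with a log2 change above 0 as deposited (0.11), but it was below 0 when scaled to TPM, which gives both libraries the same sum (-0.14). Pros45, the gene of Rpt6, was at 67.9 FPKM in glia and 76.7 FPKM in GNP. The fly gene of Rpt5 is listed as Tbp-1, outside the rule, and was at 53.7 FPKM in glia and 52.5 FPKM in GNP.

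The Rpn genes had a median log2 change of -0.26, and 1 of 10 was at least 2-fold lower in glia. Rpn12, whose protein joins the lid of the particle last in yeast, was at 70.5 FPKM in glia and 149 FPKM in GNP, a log2 change of -1.07. The scaffold subunits Rpn1 and Rpn2, the largest of the particle, were also lower but under 2-fold. Rpn1 was at 46.3 FPKM in glia and 70.9 FPKM in GNP, and Rpn2 at 33.5 FPKM in glia and 52.9 FPKM in GNP. Rpn6, which clamps the lid to the core, was at 79.5 FPKM in glia and 130 FPKM in GNP. The log2 changes of Rpn1, Rpn2 and Rpn6 were between -0.70 and -0.61.

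The other Rpn genes differed less between the libraries. Rpn3 was at 46.2 FPKM in glia and 56.7 FPKM in GNP, Rpn7 at 51.5 FPKM in glia and 54.7 FPKM in GNP, and Rpn9 at 58.1 FPKM in glia and 68.4 FPKM in GNP. Rpn5, a lid scaffold, was at 84.3 FPKM in glia and 66.2 FPKM in GNP, and its log2 change of 0.34 was the highest of the constitutive members. Rpn11 encodes the enzyme that strips ubiquitin from the substrate and was at 74.2 FPKM in glia and 71.0 FPKM in GNP. Pros54, which encodes the ubiquitin receptor Rpn10, was at 91.1 FPKM in glia and 77.4 FPKM in GNP, a log2 change of 0.23. These 6 genes differed by 1.27-fold or less. Another 3 subunit genes outside the rule also had higher values in glia as deposited: CG13349, now Rpn13 and another ubiquitin receptor, at 84.9 FPKM in glia and 58.1 FPKM in GNP, Mov34, the gene of Rpn8 and partner of Rpn11, at 77.8 FPKM in glia and 72.9 FPKM in GNP, and CG13779, now Sem1, at 233 FPKM in glia and 181 FPKM in GNP.

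The members nearest to the 2-fold limit were all on the lower side. Rpt4, Pros25 and Rpn12 were just past it, with log2 changes of -1.02, -1.04 and -1.07. Prosalpha1 at -0.71 and Rpn6 at -0.70 were the nearest within it. Scaling moved the line across the first 3 genes and Pros29: with glia scaled to the upper quartile of GNP, the counts became 10 of 13 core genes and 0 of 15 genes of the 19S particle. Scaling could not test the gap between the particles, since it moves all well-expressed genes by nearly the same amount. The difference of the median log2 changes was -1.26 as deposited and -1.25 under upper quartile scaling. The signs of the small changes of Rpt and Rpn genes depend on the scaling. Rpt1, Pros45 and Rpn7 became higher in glia under upper quartile scaling, and Rpt3, Rpn11 and Pros54 became lower when each library was scaled to TPM, so no direction is given to them.

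The particles were at like levels in glia and far apart in GNP. In glia the median FPKM was 75.1 for the core and 71.8 for the 19S particle, a ratio of 1.05. In GNP it was 232 for the core and 71.0 for the 19S particle, a ratio of 3.27. A core gene was above a 19S gene in 117 of the 195 gene pairs in glia and in 179 in GNP. With CG17331 added to the core and Tbp-1, Mov34, CG13779 and CG13349 to the 19S particle, the ratios were 1.02 in glia and 3.20 in GNP. The second copies that the rule does not catch, CG30382 among them, were left out of these ratios. FPKM values are per length, so genes can be set side by side within a library, but genes of 1 library are not replicates. The change between the libraries also ran with transcript length, as given below. The median length was 973 bases for the core and 1488 bases for the 19S particle. The part of length in these ratios was not tested.

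The spread among the constitutive genes differed in the same way. Without Prosalpha1, the SD of log2(FPKM + 1) over the other 27 genes was 0.39 in glia and 0.86 in GNP, and the highest gene was 3.59 times the lowest in glia and 5.35 times in GNP. Within the core, again without Prosalpha1, the SD was 0.30 in glia and 0.28 in GNP, and within the 19S particle it was 0.43 in glia and 0.53 in GNP. Each particle on its own thus spread less in GNP than both together. Together the 28 constitutive genes summed to 2039 FPKM in glia and 4155 FPKM in GNP, which was 0.230% and 0.558% of all FPKM of these libraries.

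Core genes have short transcripts, and in these data short transcripts tended to be higher in glia. The 13 core genes had annotated transcripts of 852 to 1176 bases, and the 15 constitutive genes of the 19S particle had 995 to 3325 bases. Among all genes averaging at least 50 FPKM, the 398 with transcripts over 800 and up to 1200 bases had a median log2 change of 0.08, and 17.6% of them were at least 2-fold lower in glia. The 459 genes over 1200 and up to 1800 bases had a median of -0.13, with 23.3% at least 2-fold lower. The shortest class, up to 800 bases, had a median of 0.63, with 9.55% at least 2-fold lower. Genes over 1800 and up to 3500 bases had a median of -0.41, with 31.8% at least 2-fold lower. The longest class, over 3500 bases, had a median of -0.80. The core genes all lay below 0, while the median gene of their length class lay slightly above it. Rpn12, one of the 2 19S genes past 2-fold, has the shortest transcript of that particle, with 995 bases.

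**Figure D3:**
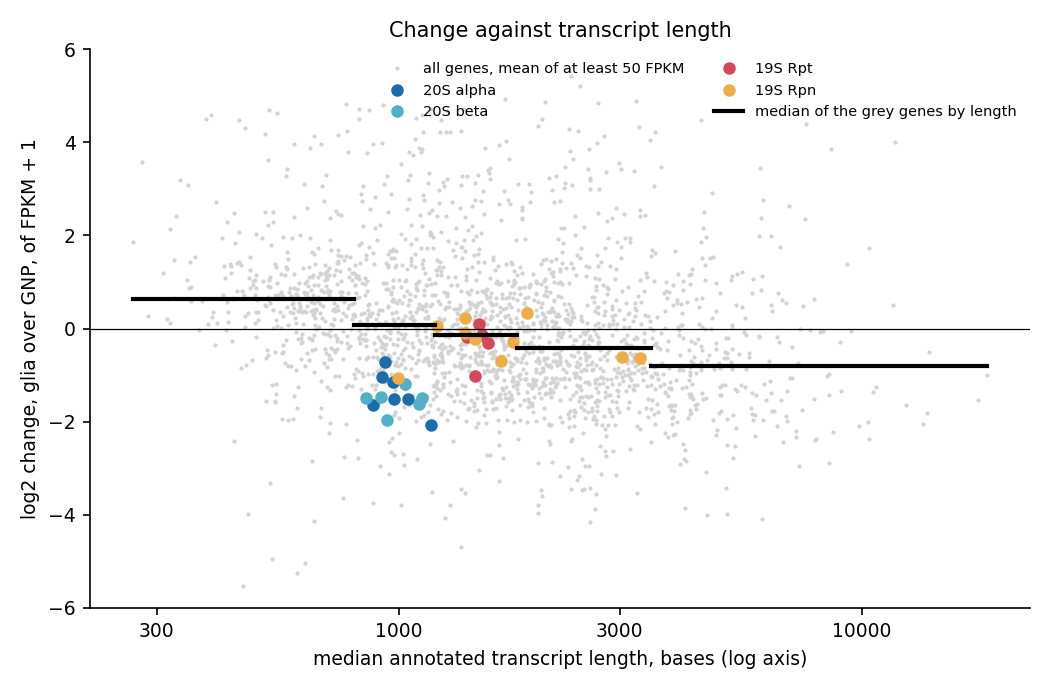
Log2 change of FPKM + 1, glia over GNP, against the median annotated transcript length on a log axis, for the constitutive subunit genes (colours) and for all genes averaging at least 50 FPKM (grey), with black bars at the median of the grey genes by length class. The core genes sit below the bar of 0.08 for their class, with log2 changes of -2.06 to -0.71.

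The second copies were nearly silent in both libraries. Their median was 0 FPKM in glia and 0.023 FPKM in GNP, against 73.0 FPKM in glia and 139 FPKM in GNP for the constitutive genes. On the log2(FPKM + 1) scale the medians of constitutive and second-copy genes were 6.21 apart in glia and 7.10 apart in GNP. Each of the 13 was at under 1% of its constitutive counterpart in glia, and 11 were so in GNP. Of the 13 genes, 8 were listed at 0 in glia, 4 in GNP, and 3 in both. A listed 0 allows up to 3 reads, which at the estimated depth is 0.056 to 0.091 FPKM in glia and 0.037 to 0.053 FPKM in GNP for the lengths of the genes listed at 0 there, counting error only.

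The alpha copies gave single reads at most in GNP. Prosalpha3T was at 0 FPKM in glia and 0.026 FPKM in GNP, beside Pros29. Pros28.1B and Prosalpha6T were at 0 FPKM in glia and at 0.017 and 0.019 FPKM in GNP. At the estimated depth each of these GNP values is about 1 read. Pros28.1A, the other second copy of alpha4, was at 0.138 FPKM in glia and 0.023 FPKM in GNP, which is about 5 reads in glia and 1 read in GNP, too few to tell the libraries apart.

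The beta copies were as low. Prosbeta2R1, Prosbeta4R2 and Prosbeta5R were at 0 FPKM in both libraries, beside Prosbeta2, CG17331 and Prosbeta5. Prosbeta4R1 was at 0 FPKM in glia and 0.049 FPKM in GNP, about 2 reads. Prosbeta2R2 was the only beta copy with values in both libraries, at 0.055 FPKM in glia and 0.270 FPKM in GNP, about 3 and 19 reads. Rpn12R, the second copy of Rpn12, was at 0 FPKM in glia and 0.084 FPKM in GNP, about 4 reads.

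The Rpt copies were the exception. Rpt3R was at 0.609 FPKM in glia and 2.82 FPKM in GNP, about 39 reads in glia and 222 in GNP, and it was 4.63 times lower in glia by the FPKM values. In GNP it stood at 4.23% of the level of Rpt3, the highest share among the 13. Rpt6R was at 0.061 FPKM in glia and 1.68 FPKM in GNP, about 4 and 135 reads, a ratio of 27.6 between GNP and glia. Its share of the level of its counterpart Pros45 was 0.0897% in glia and 2.20% in GNP. Their counterparts Rpt3 and Pros45 differed by 1.13-fold or less between the libraries. Rpt4R went the other way, with 0.351 FPKM in glia, about 23 reads, and 0 FPKM in GNP, while Rpt4 was lower in glia. The pseudocount of 1 holds these changes down: with 0.1 the log2 changes were -2.04 for Rpt3R, -3.47 for Rpt6R and 2.17 for Rpt4R, in place of -1.25, -1.34 and 0.43.

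**Figure D4:**
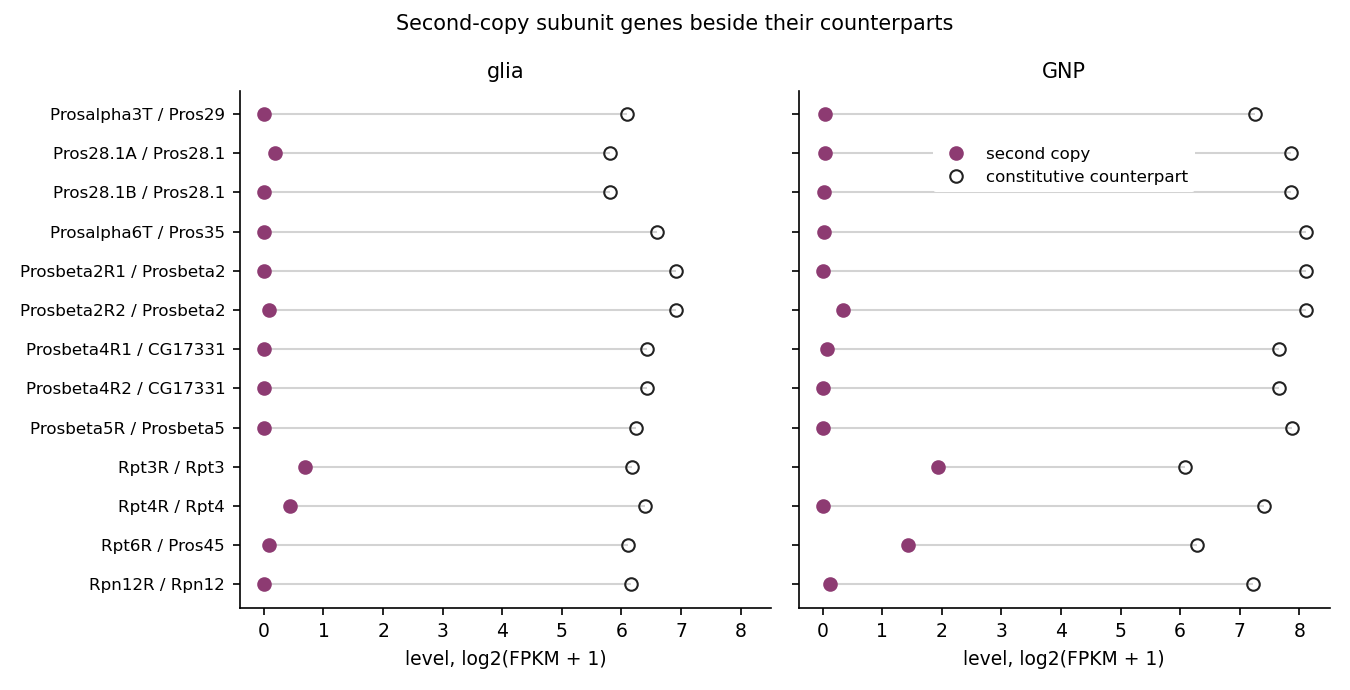
Level as log2(FPKM + 1) of each second copy (filled) and its constitutive counterpart (open) in glia (left) and GNP (right). The second copies lie at or near 0, with Rpt3R at 2.82 FPKM and Rpt6R at 1.68 FPKM in GNP as the highest, while the counterparts lie above 50 FPKM.

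Genes of germ cells and testis did not share one pattern. The testis regulators can and sa were at 0.179 and 0.151 FPKM in glia, and at 0.034 and 0.021 FPKM in GNP. The testis tubulin gene betaTub85D was at 1.24 FPKM in glia and 0.114 FPKM in GNP. The germ cell gene aub was at 3.47 FPKM in glia and 18.7 FPKM in GNP, nos at 1.17 FPKM in glia and 5.11 FPKM in GNP, and vas at 12.5 FPKM in glia and 5.55 FPKM in GNP. Both aub and nos were thus lower in glia like Rpt3R and Rpt6R, while vas was higher. Their part in the values of the second copies was not tested.

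Some features of the second copies lie in the annotation alone. Of the 13, 4 have a single exon, against 4 of the 28 constitutive genes, and in the alpha group these numbers are 3 of 4 and 0 of 7. The 4 constitutive members on the X chromosome, which are Pros28.1, Rpt3, Rpt4 and Pros45, all have a second copy among the members. All 5 of these copies are on autosomes, but so are nearly all second copies. Among the 13 only Prosbeta2R1 is on the X chromosome, and its counterpart Prosbeta2 is on 3L. Pros28.1A, Rpt3R and Rpt6R are on chromosome 3R, Rpt4R on 3L and Pros28.1B on 2R. A pair of further second copies was found under other symbols. CG31742, now Prosbeta5R2, was at 0 FPKM in both libraries. CG6789, now Rpn13R and on the X chromosome, was at 12.3 FPKM in glia and 0.384 FPKM in GNP, about 575 and 22 reads. It is the only second copy above 10 FPKM apart from CG30382, and it was singled out after its values were seen.

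Genes that build the proteasome or act on it lay on both sides of 0. Of the 10 genes of this list, 3 were at least 2-fold lower in glia and 1 at least 2-fold higher. Pomp, an assembly factor of the core, was at 52.8 FPKM in glia and 154 FPKM in GNP, and its log2 change of -1.53 was close to the core median. CG12321, CG11885 and CG8858 of the same list were not lower, with log2 changes of 0.28, 0.02 and 0.60. Uch-L3, now Uch-L5, a deubiquitinase that binds the 19S particle through Rpn13, was at 36.9 FPKM in glia and 147 FPKM in GNP. The lowest change of this list of 10 was that of ntc, an F-box protein that binds PI31 in spermatids, with 2.01 FPKM in glia and 17.7 FPKM in GNP. PI31, a regulator of the core, was at 65.6 FPKM in glia and 55.8 FPKM in GNP, and REG, the nuclear activator that can replace the 19S cap, was at 146 FPKM in glia and 183 FPKM in GNP. On the other side was cnc, which encodes the transcription factor that induces proteasome genes when the proteasome is impaired, at 73.8 FPKM in glia and 25.4 FPKM in GNP, at least 2-fold higher in glia. Its partner maf-S was at 199.9 FPKM in glia and 125 FPKM in GNP.

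The steps before the proteasome were mixed, with more genes lower than higher in glia. Over the 83 other listed genes of the ubiquitin-proteasome system, including the 8 under other symbols, 27 were lower and 6 higher by 2-fold or more. Their log2 changes had a median of -0.64. Of the 83, 79 averaged at least 1 FPKM, and among all genes at that level 22.5% were lower and 28.7% higher. Among all genes averaging at least 50 FPKM the shares were 25.2% and 21.3%. The counts of the single lists, above, here and below, are to be read beside these shares. The lists were written by hand and are not complete. Some listed symbols had no match among the genes, 10 for deubiquitinases, 9 for cullin ligases and 8 for E2 enzymes. The ubiquitin genes themselves were not lower as a set, since Ubi-p63E was at 324 FPKM in glia and 351 FPKM in GNP and Ubi-p5E at 389 FPKM in glia and 167 FPKM in GNP. Of the 10 genes of ubiquitin-like proteins and their E1 enzymes 3 were at least 2-fold lower, namely Uba2 and Aos1, which activate SUMO, and Nedd8, while APP-BP1 had the highest log2 change at 1.34. The lowest was Uba2, at 39.5 FPKM in glia and 175 FPKM in GNP. Of 12 E2 enzymes 4 were at least 2-fold lower and 0 higher, from UbcD4 at -1.75 to Ubc84D at 0.58.

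**Figure D5:**
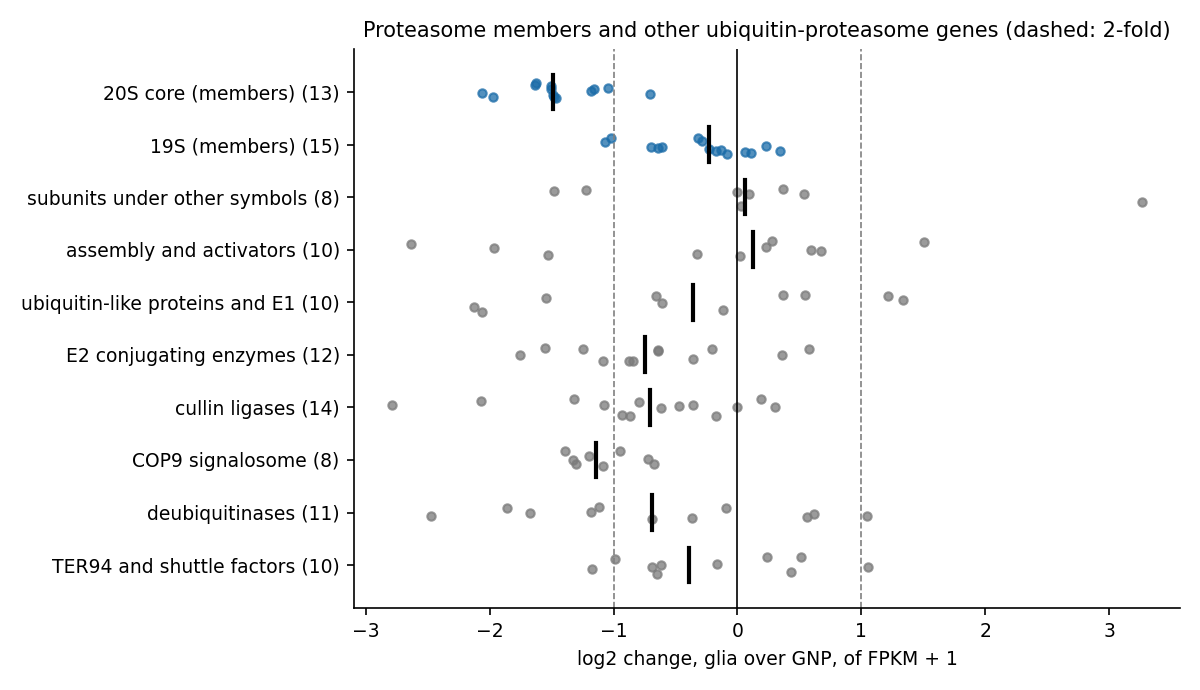
Log2 change of FPKM + 1, glia over GNP, of core and 19S members (blue) and of the genes of other ubiquitin-proteasome lists (grey), with 1 point per gene, a black bar at each median, dashed lines at 2-fold and the number of genes in brackets. The core has the lowest median at -1.49, followed by the COP9 signalosome at -1.14.

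The COP9 signalosome is a complex related to the lid of the proteasome that removes NEDD8 from cullins. All 8 of its genes were lower in glia, 5 of them by 2-fold or more, and the median was -1.14 on the log2 scale. CSN4 was the lowest, at 29.9 FPKM in glia and 80.2 FPKM in GNP, and CSN8 the nearest to level, at 59.7 FPKM in glia and 96.0 FPKM in GNP. Among the Rpn genes of the proteasome itself, 1 of 10 was at least 2-fold lower. Of 14 cullin ligase genes 4 were at least 2-fold lower, with ago, the F-box protein that targets cyclin E, at 27.1 FPKM in glia and 193 FPKM in GNP, and Cul-2 was highest with a log2 change of 0.30. Of 11 deubiquitinases 5 were at least 2-fold lower and 1 higher, from CG4165 at -2.48 to CYLD at 1.04. Among the 10 genes of the TER94 segregase and of shuttle factors, Rad23, which brings substrates to the proteasome, was at 143 FPKM in glia and 323 FPKM in GNP, while Der-1, of protein export from the endoplasmic reticulum, was at 101 FPKM in glia and 48.3 FPKM in GNP.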

How the data were processed

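Libraries of 49 bp single-end reads had been aligned by the authors using TopHat 1.3.1, and FPKM over FlyBase transcripts had been calculated by Cuffdiff 1.3.0, per the methods and the submitters' processing notes, which name the build dm3. The deposited table holds an FPKM value per gene for each of the 2 libraries. It also holds the authors' own p-value and call for each gene, which are deposited results of their comparison and were not used. The change of a gene is the log2 ratio of glia over GNP after 1 was added to both values, so that changes at low levels come out too small. There was 1 library of each cell type, so no test was run and 2-fold serves as the limit of description.

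Members were taken by symbol, and constitutive genes and second copies were told apart by the symbol. The members and the lists of other genes were chosen with earlier results of these data known, and the lists rest on textbook roles of the genes. One gene of another function was taken out of a list after its annotation was read, and 3 subunits under other symbols were added from the annotation. Every member is named with both values. Symbols were matched to RefSeq for 13465 of 13623 genes, 41 of 41 members among them, 11 of these by a synonym. Transcript lengths, exons and chromosomes are those of BDGP6, which is later than the build of the authors, so lengths are approximate and no coordinate is given. Depth was estimated from the steps of low FPKM values, with an assumed fragment length of 200 bases and genes with 1 transcript of at least 600 bases: 85.2% of 633 low values in glia and 84.2% of 621 in GNP lay within 0.1 of a whole read. These depths and read numbers are estimates and cover counting error only. The depth and fold calculations were tested on simulated data. The simulation used the same transcript lengths and fragment length as the estimate, so it could not test these assumptions.

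Alternatives were a pseudocount of 0.1, a mean of at least 1 FPKM, scaling to TPM or to the upper quartile, centring on the median gene, limits of 1.5-fold and 4-fold, and the subunits under other symbols. A value was taken as moved when it changed by more than 1.5-fold. Calculations ran in numpy 2.4.6 and pandas 2.3.3 under Python 3.11.15, and plots in matplotlib 3.10.9.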

Additional observations from a re-analysis of the deposited data

How the results depend on the processing

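For 64 results 316 alternatives were run, and 290 changed the value by no more than 1.5-fold and, for log2 changes, kept it on its side of 2-fold. None took a member past 2-fold in the opposite direction. No alternative shows whether a difference would recur. No paired analysis was possible because each cell type has 1 library. Values under about 0.1 FPKM rest on a few reads.

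With a limit of 4-fold, 1 of the 41 members, Pros28.1, was lower in glia, since fewer genes pass a higher limit. The 2 lower genes of the 19S particle became 5 with a limit of 1.5-fold, and 0 with upper quartile scaling or a limit of 4-fold. With a pseudocount of 0.1, 1 member was at least 2-fold higher, Rpt4R, and with the subunits under other symbols also 1, CG6789. The median log2 change of all members was -1.02 when genes averaging under 1 FPKM were left out, because that filter takes out 12 of the 13 second copies, and that of the second copies was then -1.25, from Rpt3R alone. The median of the constitutive genes was -0.86 as deposited and went past 2-fold with TPM, at -1.12, and without Prosalpha1, at -1.02, which was tried after the values were seen. The distance between constitutive and second-copy levels was 9.51 in glia and 10.1 in GNP with a pseudocount of 0.1, and 5.52 in glia and 5.20 in GNP without genes averaging under 1 FPKM. Upper quartile scaling shifted glia by 0.18 and TPM by -0.25 on the log2 scale. Of the 28 constitutive genes, 24 were lower in glia as deposited, 27 with TPM and 21 with the upper quartile, where the median of the Rpt genes was 0.0084.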

Other observations

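On the deposited scale, the ribosomal proteins and the vacuolar ATPase, other large complexes of housekeeping genes, did not share the change of the proteasome core. The COP9 signalosome, described above, was lower like the core, with all 8 genes below 0, 5 of them at least 2-fold lower, and a median of -1.14. The 87 genes with symbols of cytosolic ribosomal proteins had a median log2 change of 0.37, with 0 at least 2-fold lower in glia and 4 at least 2-fold higher. The 72 genes of mitochondrial ribosomal proteins had a median of 0.88, with 0 lower and 32 higher. Their median was 74.4 FPKM in glia and 49.3 FPKM in GNP, so that in glia they stood at about the level of the proteasome core, at 75.1 FPKM. The 33 genes of the vacuolar ATPase had a median log2 change of 0.23, with 2 lower and 11 higher. Low genes were not left out of this set: 25 of the 33 averaged at least 1 FPKM, and the lowest was at 0.025 FPKM in glia. Of all genes, 16.4% were at least 2-fold lower and 21.2% at least 2-fold higher. The median transcript length was 698 bases for cytosolic and 740 bases for mitochondrial ribosomal proteins and 1350 bases for the vacuolar ATPase, against 973 bases for the proteasome core. Among genes averaging at least 50 FPKM, the 377 with transcripts up to 800 bases had a median log2 change of 0.63. Of these 377, 36 were at least 2-fold lower in glia and 123 at least 2-fold higher. The differences between the complexes were not tested.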
